A study of Mus musculus with 16 samples.

Results

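The genes described here are 10 members of the hypoxia response, Hif1a, Egln1, Egln3, P4ha1, Plod2, Kdm3a, Pdk1, Bnip3, Fam162a and Vegfa. They were chosen by name from the 49164 gene identifiers that hold counts, after earlier results for Mel321-31 and Mel322-34 against the isotype control were known, and all 10 were among the 14633 genes with enough counts to be tested. Differences of these 2 antibodies from the control are therefore given as a description, and the list is no independent evidence of their direction.

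Hypoxia-inducible factor (HIF) is a pair of proteins, an oxygen-sensitive alpha subunit such as HIF-1α, encoded by Hif1a, and the stable partner ARNT. When oxygen is present, prolyl hydroxylases of the EGLN family mark the alpha subunit for the VHL ubiquitin ligase and it is degraded, so HIF activity is set largely at the protein level, which messenger RNA does not report. When oxygen is short the pair binds hypoxia response elements of a short core sequence and raises genes for glucose use, mitochondrial restraint, collagen modification and vessel growth, and in melanoma the same targets are known to be active in poorly perfused tumour regions.

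The study asked which genes and pathways respond to monoclonal antibodies, named in its title as decoys against extracellular HSP70, in B16-F10, a mouse melanoma line that makes pigment. All cells were labelled wild type, and all were grown in the same serum-containing medium and harvested for polyadenylated RNA after 24 hours with antibody; no label gives a change of oxygen supply or an antibody dose. The groups were Mel321-31 (n = 4), Mel322-34 (n = 4), the isotype control MGO.53 (n = 4) and Mel321-35, of which replicates 3 and 4 belong to batch 1 and replicate 1 is the only library of batch 2. Mel321-35 replicate 2 was not analysed here, and the Mel321-35 values below rest on n = 2 unless batch 2 is named. The data describe 1 cell line in culture, and the labels call the replicates biological without saying whether they were separate cultures, so a p-value covers only the spread among these libraries, which may be technical.

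Libraries held 19.4 to 33.5 M counts (M for 1000000) for MGO.53, 31.7 to 38.0 M for Mel321-31, 29.1 to 35.0 M for Mel322-34, and 26.2 and 35.2 M for Mel321-35. All 7 melanocyte markers were detected, with a summed level of 29295 to 30560 CPM, that is counts per 1000000 of the library. Within that sum Sox10 was called lower with Mel321-31 and Mel322-34 (log2 differences -0.12 ± 0.031 and -0.10 ± 0.031) and Pmel with Mel322-34 (-0.11 ± 0.028). Dct went the other way, above every control library with both at 0.070 ± 0.022 and 0.045 ± 0.022, and was not called. Among the rest, also not called, Mitf (0.070 and 0.065), Tyr (0.043 and 0.0064) and Tyrp1 (0.00092 and 0.0023) leaned higher. Mlana leaned lower (-0.038 and -0.072). Epcam of epithelium, Cdh5 of endothelium and Adgre1 of macrophages were at 0 in all 15 libraries, but other listed markers were not. Cd68 of the immune list stood at 13.4 to 18.7 CPM, while Ptprc, Cd3e and Cd79a reached at most 0.060, 0.11 and 0.40. Pecam1 of endothelium reached 0.27 CPM, and Krt8 and Krt18 of epithelium 7.04 and 7.46. Col1a1 of fibroblasts stood at 2.37 to 3.92 CPM. The summed level of 6 epithelial markers ran from 10.7 to 15.9 CPM with MGO.53, from 4.23 to 6.57 with Mel321-31, from 5.90 to 11.5 with Mel322-34, and stood at 6.61 and 11.7 with Mel321-35. The batch 2 library held 1.03 CPM. Krt8 and Krt18 were called lower with Mel321-31 (log2 differences -1.50 ± 0.23 and -1.43 ± 0.27). With Mel322-34 they stood at -0.84 ± 0.22, called, and -0.78 ± 0.26, not called. Cdh1 was never called, at -0.057 ± 0.24 with Mel321-31. It leaned higher with Mel322-34 (0.37 ± 0.24) and Mel321-35 (0.35 ± 0.29). Krt5 and Krt14 reached at most 0.077 and 0.25 CPM. Depth, some melanocyte markers, Krt8 and Krt18 thus moved with the groups. The melanocyte markers did so in both directions, and the ranges of their sum overlapped between the groups. The part of each in the differences below was not tested. In bulk RNA, fewer cells that express a gene and less of its RNA per cell cannot be told apart.

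For 9 of the 10 genes RefSeq promoter windows on build GRCm38.p6 were at hand, in 13 windows that reach from 250 bases before to 50 bases after the transcript start; Plod2 was not matched. The core of the hypoxia response element was searched as ACGTG and GCGTG on both strands, and at least 1 copy lay in 9 of the 13 windows (69.2%) and in some window of each of the 9 genes. For Vegfa that window was chr17:46025114-46025413, while chr17:46032328-46032627 held 0 matches. The ends of the 50 bases after the start in the former were found in no GENCODE M21 transcript of Vegfa. Without that window Vegfa has no match. By gene, 67.2% of the 10494 tested genes with a window and 46.7% of all 27025 had a match in some window. The same letters lay in 61.1% of the 13430 windows of tested genes and in 43.8% of all 32851 windows. ACGTG alone lay in 53.8% of the member windows and 25.3% of those of tested genes, and GCGTG alone in 53.8% and 49.6%. Where ACGTG falls inside the palindrome CACGTG it is read on both strands and counts as 2 overlapping matches. A match is a description of the letters and not a measured binding site. The 4 stretches below precede P4ha1, Pdk1, Hif1a and Fam162a. These genes were picked with their levels known, so their matches are examples and no independent evidence. P4ha1, Pdk1 and Hif1a were called in a comparison that chose the members, and Fam162a was called with no antibody in the main fit. Each stretch runs 5′ to 3′ along the gene's strand over 260 bases and ends 10 bases after the start. Capitals mark each match, written CACGT or CACGC where it is read on the other strand.
P4ha1, chr10:59323046-59323305, plus strand: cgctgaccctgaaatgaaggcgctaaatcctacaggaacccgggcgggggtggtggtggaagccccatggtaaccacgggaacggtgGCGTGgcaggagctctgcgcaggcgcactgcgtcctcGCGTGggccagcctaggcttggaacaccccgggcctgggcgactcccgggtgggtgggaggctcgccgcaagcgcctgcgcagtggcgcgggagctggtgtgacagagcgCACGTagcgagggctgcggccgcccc
Pdk1, chr2:71872974-71873233, plus strand: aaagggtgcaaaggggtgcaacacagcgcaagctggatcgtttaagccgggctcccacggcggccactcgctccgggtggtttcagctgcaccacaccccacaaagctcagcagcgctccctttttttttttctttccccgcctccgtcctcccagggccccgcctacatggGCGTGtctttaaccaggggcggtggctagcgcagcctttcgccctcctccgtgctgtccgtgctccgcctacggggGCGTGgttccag
Hif1a, chr12:73907617-73907876, plus strand: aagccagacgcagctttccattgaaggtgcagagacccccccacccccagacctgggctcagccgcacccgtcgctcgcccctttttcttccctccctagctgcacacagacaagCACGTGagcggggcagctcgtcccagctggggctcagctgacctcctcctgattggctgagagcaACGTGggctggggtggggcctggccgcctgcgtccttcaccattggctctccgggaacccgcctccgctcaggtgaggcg
Fam162a, chr16:36071552-36071811, minus strand: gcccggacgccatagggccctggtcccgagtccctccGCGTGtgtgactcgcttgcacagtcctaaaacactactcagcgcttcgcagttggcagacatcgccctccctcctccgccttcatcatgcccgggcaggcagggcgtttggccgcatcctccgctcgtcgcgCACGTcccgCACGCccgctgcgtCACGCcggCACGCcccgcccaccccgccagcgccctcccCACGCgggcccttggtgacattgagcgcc
P4ha1 shows 3 matches, Pdk1 2 matches, both GCGTG, Hif1a 3 matches of which a pair is the palindrome, and Fam162a 6. An end of the 50 bases after the start was found in a GENCODE M21 transcript of the gene for P4ha1, Pdk1 and Fam162a. For Hif1a neither end was found, so its start is less certain.

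In the control cells the members spanned a wide range of levels. Per kilobase of the longest transcript, Fam162a was highest at 106 ± 2.69 CPM per kb (SD, n = 4), followed by Hif1a at 53.7 ± 0.506. Kdm3a at 24.2 ± 1.20 and Plod2 at 24.1 ± 0.447 did not differ beyond their spread, nor did P4ha1 at 21.9 ± 1.32 and Egln1 at 21.3 ± 1.09. Vegfa at 7.43 ± 0.787 and Bnip3 at 7.41 ± 0.855 formed the next level, Pdk1 stood at 3.61 ± 0.254, and Egln3 was lowest at 0.617 ± 0.060 CPM per kb. Fam162a lay at percentile 95.9 of the 14612 tested genes with a length, and Egln3 at 21.2. Every other level below is in CPM without division by length, so it compares the same gene between libraries.

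**Figure D1:**
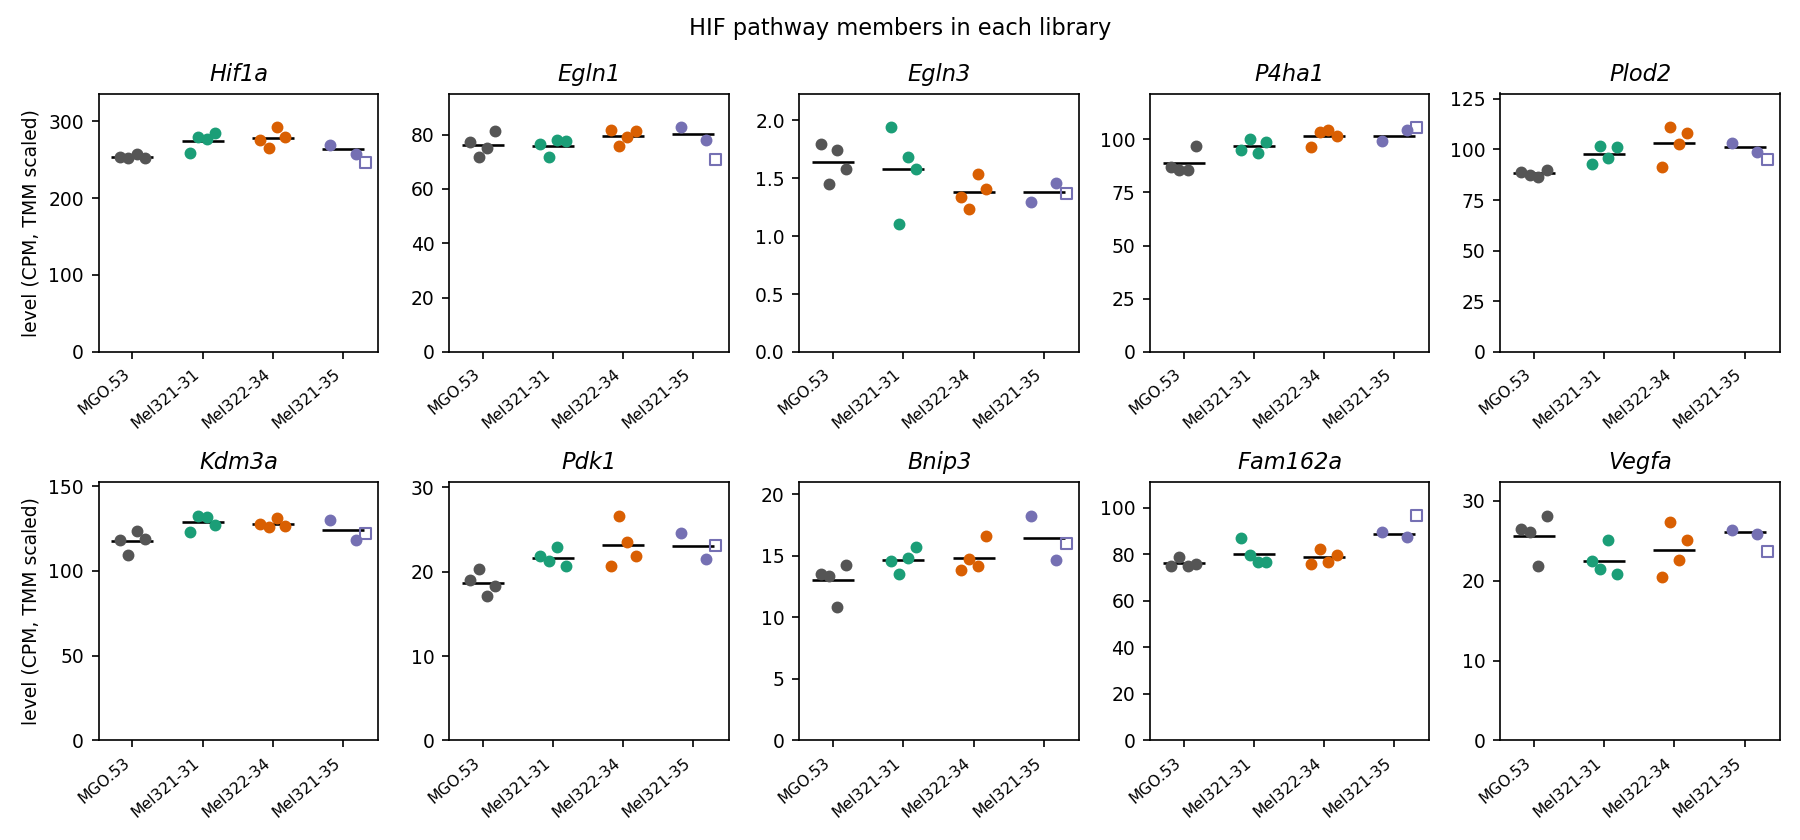
Level of each of the 10 genes (vertical axis, CPM after TMM scaling, from 0) in every library by antibody; filled points are batch 1 libraries, the open square is the batch 2 library of Mel321-35, and the bar is the batch 1 group mean. Plod2 and Pdk1 lie above MGO.53 in each library of the 3 antibodies, while the batch 1 libraries of Egln1, Egln3 and Vegfa overlap the control with each antibody.

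Hif1a encodes the oxygen-regulated alpha subunit itself. It measured 253, 252, 257 and 252 CPM in MGO.53 replicates 1 to 4, 258, 279, 277 and 284 in Mel321-31, and 275, 265, 292 and 279 in Mel322-34. Every library of these 2 antibodies lay above the 4 control libraries, with Mel321-31 replicate 1 (258) close to the highest of them (257). The log2 difference from MGO.53 was 0.11 ± 0.036 (SE) with Mel321-31 and 0.13 ± 0.036 with Mel322-34. Mel321-35 gave 269 and 258 CPM, just above the control, and its log2 difference of 0.054 ± 0.044 did not pass the test (adjusted p = 0.702 over all genes, edgeR quasi-likelihood test). The batch 2 library of Mel321-35 held 247 CPM, below every control library.

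Egln1 and Egln3 encode oxygen-sensing prolyl hydroxylases that inactivate HIF, and both are known as HIF targets that feed back on it. Egln1 ranged from 71.9 to 81.2 CPM with MGO.53, from 71.6 to 78.1 with Mel321-31, from 75.9 to 81.6 with Mel322-34, and stood at 82.7 and 78.0 with Mel321-35. Egln3 was scarce, from 1.45 to 1.79 CPM with MGO.53, 1.10 to 1.94 with Mel321-31, 1.23 to 1.53 with Mel322-34, and 1.30 and 1.46 with Mel321-35. The groups of both genes overlapped in all comparisons of batch 1 libraries. The log2 difference of Egln3 was -0.26 ± 0.23 with Mel322-34 and -0.27 ± 0.29 with Mel321-35 (adjusted p = 0.795), so a change of that size could not be told from 0 at this level, and that of Egln1 lay between -0.010 ± 0.045 with Mel321-31 and 0.074 ± 0.055 with Mel321-35 (adjusted p = 0.674).

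P4ha1 encodes the catalytic subunit of collagen prolyl 4-hydroxylase, which stabilises the collagen helix. Its levels were 86.9, 85.6, 85.6 and 96.6 CPM in MGO.53, 95.2, 100.1, 93.5 and 98.9 in Mel321-31, and 96.6, 103, 104 and 102 in Mel322-34. Replicate 4 stood apart from the other 3 control libraries and alone made the control overlap these 2 antibodies. The log2 difference was 0.13 ± 0.044 with Mel321-31 and 0.19 ± 0.044 with Mel322-34. With Mel321-35 P4ha1 measured 99.2 and 104 CPM, above all 4 controls, and the log2 difference of 0.20 ± 0.053 did not pass (adjusted p = 0.175). The batch 2 library was higher than any other, at 106 CPM.

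Plod2 encodes a lysyl hydroxylase that acts on collagen telopeptides and so sets the type of cross-link. It measured 89.1, 87.4, 86.2 and 89.9 CPM in MGO.53, 92.9, 102, 95.8 and 101 in Mel321-31, 91.4, 111, 103 and 108 in Mel322-34, and 103 and 98.5 in Mel321-35. No antibody library fell within the control range, although Mel322-34 replicate 1 came close to it. The log2 difference was 0.15 ± 0.049 with Mel321-31, 0.23 ± 0.049 with Mel322-34 and 0.20 ± 0.059 with Mel321-35, the last with an adjusted p = 0.217. Among the other collagen hydroxylase genes P4ha2, Plod1 and Plod3 no call was made in any comparison, and against MGO.53 their log2 differences lay between -0.070 (Plod1, Mel321-35) and 0.051 (P4ha2, Mel321-35).

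Kdm3a encodes a histone H3 lysine 9 demethylase that itself needs oxygen. The control libraries held 118, 109, 123 and 119 CPM, against 123, 132, 132 and 127 with Mel321-31 and 128, 126, 131 and 126 with Mel322-34. Mel322-34 lay above the control in each library, and Mel321-31 overlapped it through replicate 1. The log2 difference was 0.13 ± 0.041 with Mel321-31, 0.12 ± 0.042 with Mel322-34 and 0.080 ± 0.051 with Mel321-35 (130 and 118 CPM, adjusted p = 0.603). Of its paralogs, Jmjd1c was 88.3 ± 5.03 CPM with MGO.53, 103 ± 6.99 with Mel321-31 and 105 ± 5.54 with Mel322-34 (SD, n = 4), and Kdm3b overlapped the control with all 3 antibodies.

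Pdk1 encodes the kinase that shuts off pyruvate dehydrogenase and so keeps pyruvate from being turned into acetyl-CoA in the mitochondrion. Its levels were 19.0, 20.3, 17.1 and 18.3 CPM in MGO.53, 21.9, 21.2, 23.0 and 20.6 in Mel321-31, 20.7, 26.6, 23.5 and 21.8 in Mel322-34, and 24.5 and 21.5 in Mel321-35. All 10 batch 1 antibody libraries lay above the highest control library. The log2 difference was 0.22 ± 0.077 with Mel321-31, 0.31 ± 0.077 with Mel322-34 and 0.31 ± 0.094 with Mel321-35 (adjusted p = 0.218), the last falling to 0.20 without Mel321-35 replicate 3. The paralog Pdk3 overlapped the control with every antibody, at log2 differences of 0.047 ± 0.054, 0.027 ± 0.055 and 0.037 ± 0.067 in the same order.

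Bnip3 and Fam162a encode mitochondrial proteins, the first a receptor for mitophagy and the second linked to cell death under hypoxia. Bnip3 measured 13.5, 13.3, 10.8 and 14.3 CPM in MGO.53, 14.6, 13.5, 14.8 and 15.7 in Mel321-31, 13.9, 14.7, 14.2 and 16.6 in Mel322-34, and 18.3 and 14.6 in Mel321-35. It was above the control range in both libraries of Mel321-35, with a log2 difference of 0.34 ± 0.11 (adjusted p = 0.233) that became 0.17 without its replicate 3 and 0.49 in a fit that leaves out replicate 4. It overlapped the control at 0.17 ± 0.091 and 0.19 ± 0.092 with Mel321-31 and Mel322-34. Its paralog Bnip3l, which serves the same process, lay above the control in every batch 1 library of all 3 antibodies, at log2 differences of 0.10 ± 0.048, 0.11 ± 0.048 and 0.15 ± 0.058, none of them called.

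Fam162a gave 75.0, 79.1, 75.0 and 75.9 CPM in MGO.53, 87.0, 79.7, 76.9 and 76.9 in Mel321-31 and 75.9, 82.5, 76.6 and 79.7 in Mel322-34. These 3 groups overlapped, while Mel321-35 stood higher at 89.6 and 87.5 CPM. The log2 difference was 0.072 ± 0.044 with Mel321-31, 0.047 ± 0.045 with Mel322-34 and 0.22 ± 0.054 with Mel321-35, and the last did not pass in the 14 batch 1 libraries (adjusted p = 0.138). The batch 2 library was the highest of all 15 at 96.7 CPM; with it in the fit and no batch term, the difference was 0.26 ± 0.050 (adjusted p = 0.0400). Fam162a overlaps Wdr5b on the opposite strand, which held 1131 counts in all libraries against 37412, and the sources used here do not say whether strand was used in counting.

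Vegfa encodes the secreted vascular growth factor and is a textbook HIF target. It ranged from 21.8 to 28.2 CPM with MGO.53, 20.8 to 25.1 with Mel321-31, 20.5 to 27.4 with Mel322-34, and stood at 26.4 and 25.9 with Mel321-35. Its groups overlapped in each comparison, and its log2 difference was -0.19 ± 0.083 with Mel321-31, -0.10 ± 0.084 with Mel322-34 and 0.028 ± 0.10 with Mel321-35 (adjusted p = 0.949). Vegfb, a related factor, was 80.6 ± 4.65 CPM with MGO.53, 67.6 ± 1.48 with Mel321-31 and 70.8 ± 3.20 with Mel322-34, below the control in every library of both (log2 differences -0.25 ± 0.045 and -0.18 ± 0.045).

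**Figure D2:**
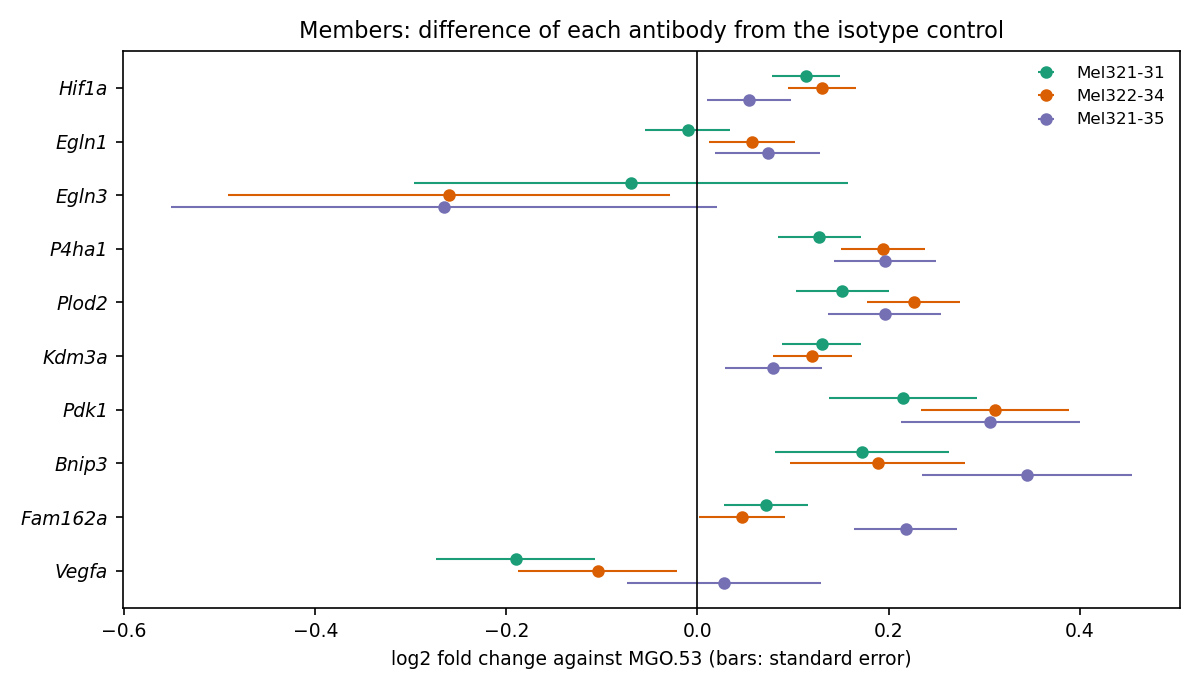
Log2 fold change against MGO.53 (horizontal axis) of each gene for each antibody, with the standard error as bars; batch 1 libraries. Hif1a, P4ha1, Plod2, Kdm3a, Pdk1, Bnip3 and Fam162a lie to the right of 0 by more than their standard error with all 3 antibodies. This does not mean that they were called. Vegfa lies at -0.19 with Mel321-31 and 0.028 with Mel321-35.

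Counted as a list, the members differed from the control by at most 0.34 on the log2 scale, the value of Bnip3 with Mel321-35. A gene was called at an adjusted p under 0.05 over all 14633 genes. With Mel322-34, 4 of the 10 members were called and all 4 were higher, Hif1a, P4ha1, Plod2 and Pdk1, where 6.87% of all genes were called and 4.03% were called higher. The split of all calls was 589 higher and 416 lower, and 483 and 555 with upper quartile scaling, under which the same count of 4 members was called. With Mel321-31, 0 of 10 members were called by edgeR (6 had an unadjusted p under 0.05, Vegfa lower and the others higher, as had 17.8% of all genes, DESeq2 called 2 and limma-voom 0), where 3.53% of all genes were called. Because these comparisons chose the members, nothing is read from either count. Hif1a and Pdk1 depended on single libraries with Mel322-34: Hif1a was not called without replicate 3 or 4 of Mel322-34 or replicate 1, 2 or 4 of MGO.53 (adjusted p from 0.0549 to 0.126), and Pdk1 not without replicate 2 or 3 of Mel322-34 or replicate 3 of MGO.53 (adjusted p from 0.0511 to 0.0543), so that 2 members were left without Mel322-34 replicate 3. Plod2 and P4ha1 were called in all 20 alternatives run. With Mel321-31, leaving out its replicate 1 gave calls for Hif1a, Plod2 and Kdm3a, and leaving out MGO.53 replicate 4 gave one for P4ha1.

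Mel321-35 against MGO.53 is not among the comparisons by which the members are known to have been chosen. It shares the control libraries with the other 2 comparisons, so its values are no independent support for the list. By edgeR 0 of 10 members were called, where 0.0410% of all genes were; 5 members had an unadjusted p under 0.05, as had 10.5% of all genes, DESeq2 called Fam162a and P4ha1, and limma-voom called 0. In both Mel321-35 libraries 6 members, Hif1a, P4ha1, Plod2, Pdk1, Bnip3 and Fam162a, lay above all 4 control libraries and 0 lay below, where 10.6% of all genes lay above. The median log2 difference of the members was 0.14, beside -0.0012 over all genes tested. In the comparisons that chose the members it was 0.12 for Mel321-31 and 0.13 for Mel322-34, with 3 members (4.61% of all genes) and 4 members (7.03%) above all controls. The batch 2 library of Mel321-35 was above the range of the controls for 5 members, P4ha1, Plod2, Pdk1, Bnip3 and Fam162a, below it for Hif1a, Egln1 and Egln3, and within it for Kdm3a and Vegfa; as batch 2 holds no control library, its batch and its antibody cannot be told apart.

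Mel322-34 and Mel321-31 were also compared with each other. By edgeR 0 of 10 members were called, where 0.0205% of all genes were called; 0 members had an unadjusted p under 0.05, as had 6.96% of all genes, and DESeq2 and limma-voom called 0. The libraries of the 2 antibodies overlapped for all 10 members, while 3.79% of all genes did not overlap. The largest differences were 0.096 ± 0.075 for Pdk1 (adjusted p = 0.876) and 0.086 ± 0.082 for Vegfa among those higher with Mel322-34, and -0.19 ± 0.23 for the scarce Egln3. The median over the members was 0.042, beside 0.0035 over all genes. A p above the threshold does not show that the antibodies act alike.

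A list of 81 further genes of the pathway was taken from general knowledge, and 75 of them were tested. Earlier results of these data were known when it was made, so its calls are a description too. Their median log2 difference was 0.014 with Mel321-31, 0.034 with Mel322-34 and 0.034 with Mel321-35, beside -0.0014, -0.0011 and -0.0012 over all genes. With Mel321-31, 4 genes rose and 2 fell, and 69 did not pass, where 1.41% of all genes were called higher and 2.13% lower. With upper quartile scaling 3 rose and 4 fell, beside 144 and 337 of all 14633 genes. With Mel322-34, 7 rose and 4 fell, and 64 did not pass, where 4.03% of all genes were called higher and 2.84% lower. With upper quartile scaling 6 rose and 6 fell, beside 483 and 555 of all genes. With Mel321-35, 1 gene rose, where 0.0342% of all genes were called higher and 0.00683% lower.

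Of the HIF machinery, 13 of 14 genes were tested. Ep300, a coactivator of HIF, rose with Mel322-34 by a log2 difference of 0.19 ± 0.049 (adjusted p = 0.0167), and it was -0.077 ± 0.061 with Mel321-35. Arnt, the partner subunit, and Epas1, the HIF-2α gene, were called in no comparison, with log2 differences against MGO.53 of 0.024 to 0.13 for Arnt and -0.11 to 0.0099 for Epas1. Vhl and Hif1an, which encode the ubiquitin ligase subunit and the asparaginyl hydroxylase that restrain HIF, lay between 0.021 and 0.10 and were not called. Siah2, a ubiquitin ligase known to degrade EGLN proteins, lay below all control libraries with each antibody at -0.22 ± 0.067, -0.21 ± 0.068 and -0.14 ± 0.083, and passed with none (adjusted p = 0.0585, 0.0538 and 0.580).

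Glucose use holds many textbook HIF targets, and 20 of 20 such genes were tested. Pfkl, the liver-type phosphofructokinase, rose from 142 ± 3.73 CPM (SD, n = 4) with MGO.53 to 161 ± 6.39 with Mel321-31 and 173 ± 8.18 with Mel322-34, and stood at 170 ± 3.84 (n = 2) with Mel321-35 (adjusted p = 0.00881, 0.000109 and 0.0353). Pgk1, phosphoglycerate kinase, rose with Mel321-31 and Mel322-34 by 0.15 ± 0.041 and 0.13 ± 0.041, and Aldoa, an aldolase, fell by 0.095 with Mel322-34. The other 18 genes with Mel321-31 and 17 with Mel322-34 did not pass, and the list's median was -0.00040 and 0.0065.

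**Figure D3:**
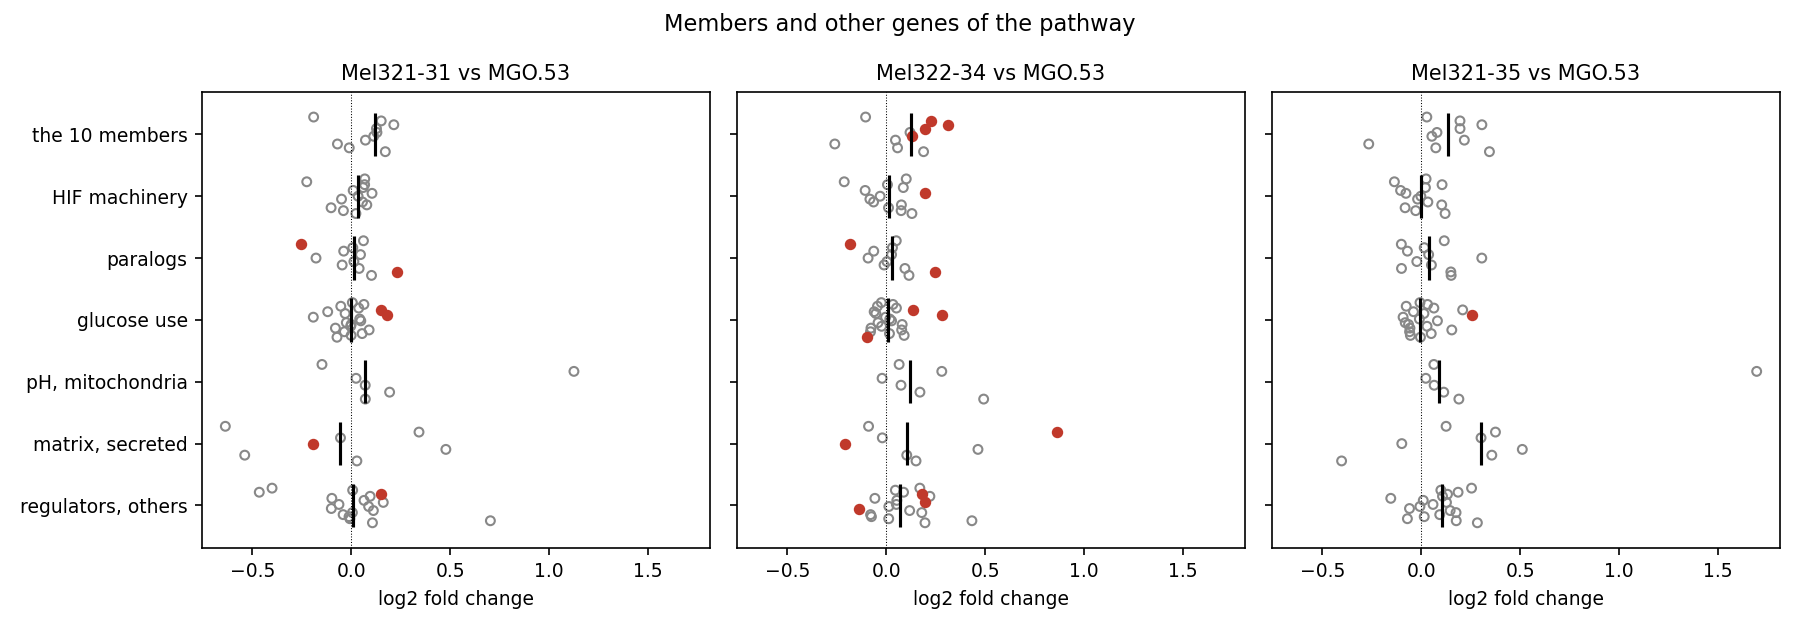
Log2 fold change against MGO.53 (horizontal axis) of the 10 members and of 6 lists of other pathway genes for each antibody; each point is a gene, filled red where called, and the black bar is the list's median. The members' medians of 0.12, 0.13 and 0.14 stand beside pathway medians of 0.014, 0.034 and 0.034.

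Among the other lists, the paralogs gave Jmjd1c higher (adjusted p = 0.00834 and 0.00388) and Vegfb lower (0.00240 and 0.0141) with Mel321-31 and Mel322-34. Mif, a secreted cytokine, fell with both, by 0.19 and 0.21 on the log2 scale. Tfrc, the transferrin receptor, rose with Mel321-31 and Mel322-34 by 0.15 and 0.18, Kdm4c, a histone demethylase, rose with Mel322-34 by 0.20, and Hmox1, haem oxygenase, fell with it by 0.14. The calls of these lists depended on single libraries: they numbered 11 without Mel321-31 replicate 1 and 2, 3 and 3 without Mel321-31 replicate 2, Mel321-31 replicate 4 or MGO.53 replicate 2. With Mel322-34 they numbered 4, 4 and 5 without its replicate 3 or without MGO.53 replicate 2 or 4, and the Pfkl call with Mel321-35 was lost whichever of the 6 libraries was left out.

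Differences between libraries also followed transcript length. Over the 10172 tested genes with a length and an average log2 CPM above 2, the Spearman correlation of length with the log2 difference from MGO.53 was 0.381 for Mel321-31, 0.512 for Mel322-34 and 0.122 for Mel321-35; it is across genes, which share the same libraries. Pdk1, Kdm3a and Hif1a have long transcripts of 5185, 4853 and 4724 bases, and Fam162a a short one of 718, where the median tested gene has 3117. After the trend of each library on length was removed, Plod2 and P4ha1 stayed called with Mel322-34 at 0.22 (adjusted p = 0.00868) and 0.18 (adjusted p = 0.0203). Pdk1 at 0.26 and Hif1a at 0.091 were not called (adjusted p = 0.0596 and 0.0984). Fam162a was then called with Mel321-31 at 0.15, with Mel322-34 at 0.17 and with Mel321-35 at 0.27 (adjusted p = 0.0272, 0.0197 and 0.0158). The size of the Fam162a difference with Mel321-31 and Mel322-34 therefore rested on how length was treated.

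**Figure D4:**
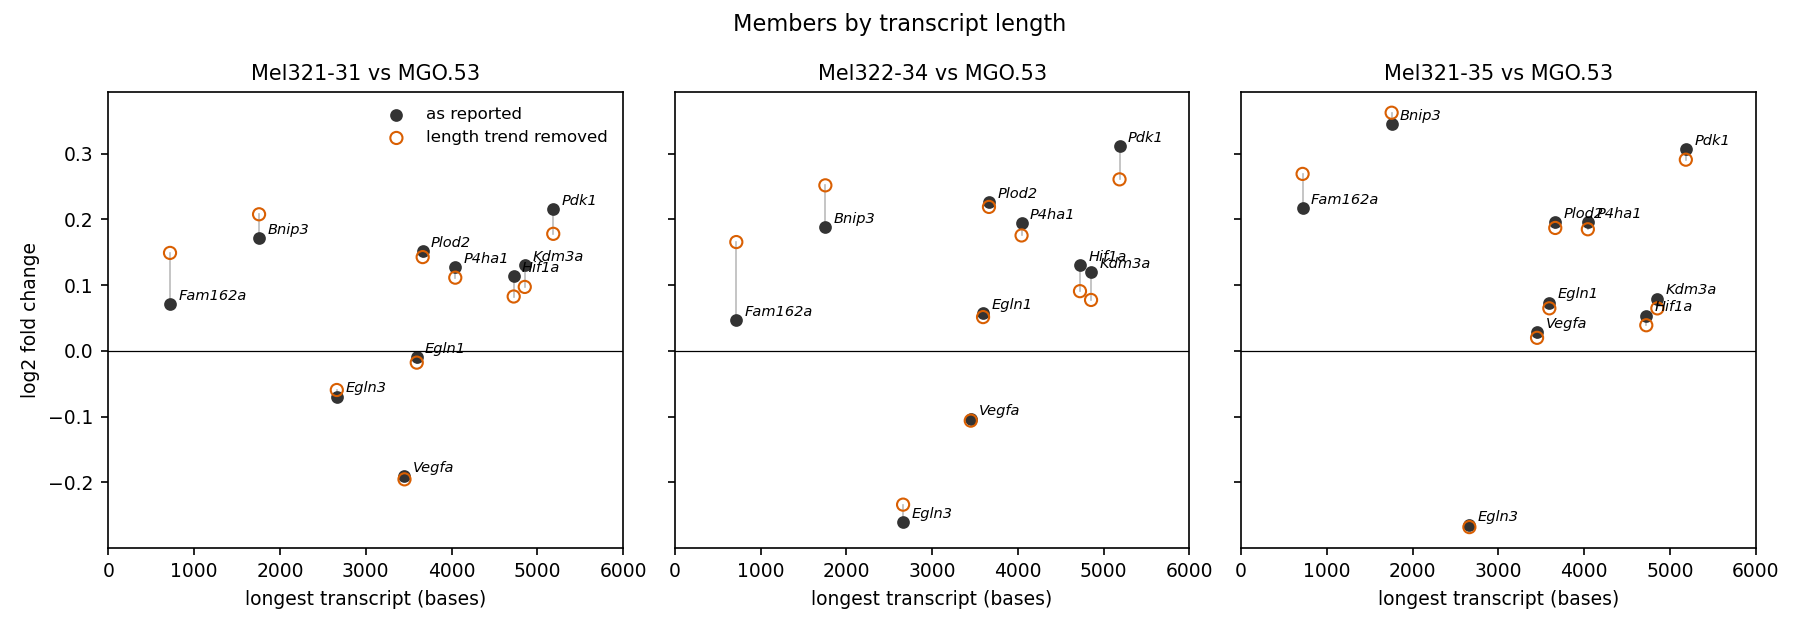
Log2 fold change against MGO.53 (vertical axis) of each gene by the length of its longest transcript (horizontal axis, bases), as reported (filled) and after the trend on length was removed (open). Fam162a, at 718 bases, moves up with all 3 antibodies, from 0.072 to 0.15 with Mel321-31, and Pdk1, at 5185 bases, moves down.

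Correlations between the members were taken across the 14 batch 1 libraries, with the group differences left in. Of the members' 45 pairs, 33 had a Pearson correlation of log2 CPM above 0, with a median of 0.29. The highest were P4ha1 with Plod2 at 0.84, Hif1a with Kdm3a at 0.81 and Plod2 with Pdk1 at 0.80. The lowest were Egln3 with Plod2 at -0.57 and Hif1a with Vegfa at -0.53. The genes outside the list whose log2 CPM was most like the mean standardised profile of the 10 members, among 9273 candidates, were Ccp110 at 0.864, Lysmd3 at 0.862, Birc2 at 0.857, Cab39 at 0.855 and Cep55 at 0.849. These values are descriptions over libraries that share antibody groups, depth and scaling. The members were chosen with earlier differences from the control known, and correlations above 0 between them can follow from that choice. No value for pairs of all tested genes stands beside them. Whether the members varied together more than other genes was therefore not tested, nor was the part of transcript length.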

How the data were processed

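Per the submitters' processing notes, STAR 2.7.10a and HTSeq 2.01 were used, as was DESeq2, for which no version is named. The sources used here name no genome build, annotation or strand setting for the counts. Raw counts, as deposited, cover 55414 gene identifiers, 49164 of them with values. The deposited normalised signal is each count over its library's size factor and served only as an alternative scaling. The libraries were strand-specific, per the labels' protocols.

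Counts of the 14 batch 1 libraries were fitted for 4 groups with edgeR 4.0.16 in R 4.3.3 (TMM scaling, default filter by expression, quasi-likelihood F-test), with Benjamini-Hochberg adjustment over the 14633 genes tested. Biological variation between libraries came to a coefficient of 5.46% (10 residual degrees of freedom). Standard errors were taken as the log2 difference over the root of F. Levels are CPM with TMM scaling, with the batch 2 library scaled together with the other 14. Totals of 19.4 to 38.0 M counts per library limit precision most for Egln3. The fit was tested on simulated data with known changes.

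The members and lists were chosen with earlier results of these data known. Named are the 10 members, up to 3 called genes with the smallest p of each pathway list, direction and comparison, tested paralogs and machinery genes tied to a member, and the 5 genes of most similar profile. Alternatives were DESeq2 1.42.0, limma-voom (limma 3.58.1), 3 scalings, 2 filters, fits of 2 groups, batch 2 with and without a batch term, a replicate block, removal of the trend on transcript length (longest GENCODE M21 transcript, lowess span 0.3), and each library left out. Replicate numbers were not used as pairs in the main fit, as no pairing was stated. Protein sequences were not compared here, and 1 gene that the rule names is not reported here.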

Additional observations from a re-analysis of the deposited data

Results flagged for a closer look

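P4ha1 in MGO.53 replicate 4 (96.6 CPM) stood apart from the other 3 control libraries, which lay close together, by more of the group's range than Dixon's 95% limit of 0.829 for 4 samples allows. It was the only such library among 30 groups of 4 tested, where chance gives about 1 in 20. P4ha1 was called with Mel321-31 when this library was left out and was called with Mel322-34 with and without it.

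The batch 2 library of Mel321-35, which is outside the fit, held levels above all 4 control libraries for 5 members. These were 106 CPM for P4ha1, 94.8 for Plod2, 23.1 for Pdk1, 16.0 for Bnip3 and 96.7 for Fam162a. It has no control library of its own batch, so batch and antibody cannot be told apart.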

How the results depend on the processing

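Values are counts of calls, in the order of the alternatives named. With Mel321-31 the 0 calls among the members became 2 with DESeq2 and 1 each with no low-count filter, with a fit of the 2 groups alone and with the length trend removed. With batch 2 included and no batch term, 3 of the other pathway genes and 91 genes in all were called, against 6 and 517. With Mel322-34, removal of the length trend left 7 pathway genes and 416 genes in all, against 11 and 1005. With Mel321-35 the 0 member calls became 2 with DESeq2 and 1 each with no filter, 2 groups alone, batch 2 without a batch term and the length trend removed, and pathway calls went from 1 to 2 under the same 5. All calls there went from 6 to 100 with DESeq2, 95 with no filter, 42 with 2 groups alone and 25 with the length trend removed. Between Mel322-34 and Mel321-31, pathway calls went from 0 to 1 with DESeq2, with no filter and with the length trend removed, and all calls from 3 to 10, 110 and 7. No paired design was stated, and same-numbered libraries correlated at a median of 0.026 over 18 pairs (-0.22 to 0.27). The median was -0.0020 over 54 pairs with other numbers (-0.31 to 0.29). These values do not show that no pairing existed. With the replicate block the members called stayed at 0, 4, 0 and 0, and all calls were 636, 1209, 5 and 6.

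Leaving out each library in turn gave, for Mel321-31, 0 to 3 members called, 2 to 11 pathway genes, 136 to 1238 genes in all and a member median of 0.10 to 0.14. The extremes in all genes came without its replicate 2 and replicate 1, and 253, 218, 163 and 187 were called without its replicates 3 and 4 and MGO.53 replicates 2 and 4. For Mel322-34 the ranges were 2 to 4, 4 to 12, 327 to 1051 and 0.11 to 0.14, with 327 without its replicate 3 and 397 and 504 without MGO.53 replicates 2 and 4. For Mel321-35 they were 0 to 0, 0 to 0, 0 to 21 and 0.094 to 0.16. Between the antibodies they were 0 to 0, 0 to 0, 0 to 2 and 0.021 to 0.051. Directions that turned belonged to values near 0 that passed no test. Vegfa with Mel321-35 became -0.016 with batch 2 and no batch term and ran from -0.043 to 0.076 as libraries were left out. Between the antibodies Fam162a became 0.017 with the length trend removed and ran from -0.049 to 0.016, Hif1a from -0.011 to 0.039, Kdm3a from -0.031 to 0.0030 and Bnip3 from -0.040 to 0.052. With Mel321-31, Egln1 ran from -0.035 to 0.020 and Egln3 from -0.18 to 0.069. The cause of these shifts was not tested. The promoter share of 69.2% was the same over the 250 upstream bases alone, where 55.0% of the windows of tested genes held the letters. Mel321-35 has n = 2, and Egln3 near 1.5 CPM leaves a standard error of 0.23 to 0.29 on the log2 scale.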
